A study of Homo sapiens with 8 samples.

Results

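SKOV-3 cells given pI:pC were compared with untreated SKOV-3 cells by expression array. SKOV-3 is an established human ovarian carcinoma line known for extra copies of ERBB2. The agent, pI:pC, is short for polyriboinosinic:polyribocytidylic acid, an artificial RNA duplex. The members were selected by the cell line label, which gave 1 treated and 1 untreated SKOV-3 array among the 8 arrays of the series. The other 3 ovarian cancer lines, DOV-13, CAOV-3 and OVCAR-3, had 1 treated and 1 untreated array each and serve here as the measure of spread. All cells were grown in the same serum-containing medium with L-glutamine and gentamicin, and the untreated cells had no pI:pC. Dose and exposure time are not in the labels of single arrays, nor is it said whether the RNA came from 1 culture or from pooled cultures. The values are log2 levels, so a difference of 1 is 2-fold, and each difference is treated minus untreated. The 22277 probe sets of the array included 19064 that the annotation names by 1 gene, and these stand for 11963 genes.

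With 1 array per condition there is no error inside SKOV-3 and no test of a single gene there. Values are therefore set beside the spread over all probe sets and beside the other lines. Double-stranded RNA is recognised in endosomes by the receptor TLR3 and in the cytosol by RIG-I and MDA5, which signal through TICAM1 and MAVS. These routes switch on NF-kB and the interferon regulatory factors, which drive cytokine and interferon genes. Secreted interferon then acts through its receptor and the JAK-STAT pathway on promoters with an interferon-stimulated response element, and the genes so induced are called interferon-stimulated genes.

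Levels of the line's known marker went with its label. ERBB2, the receptor tyrosine kinase gene amplified in SKOV-3, stood at 10.81 in treated and 10.70 in untreated SKOV-3, against 8.05 to 8.65 on the 6 arrays of the other lines. Its neighbours STARD3 (7.66 on both SKOV-3 arrays) and PGAP3 (at least 7.97 on both) were also above the other lines, which lay at 5.71 to 6.52 and 6.33 to 6.99. GRB7, a further neighbour, was not: it had 6.36 in treated and 6.13 in untreated SKOV-3, within the other lines' 5.87 to 6.42. Of 14 measured leukocyte markers, 1 met the level rule given below, as did none of 9 endothelial markers, and no marker of either list differed by 0.5.

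By the count of probe sets past 2-fold, given below, the response of SKOV-3 was small. The treated and untreated arrays correlated at 0.996 over all 22277 probe sets of the array. The pairs of DOV-13, CAOV-3 and OVCAR-3 correlated at 0.997, 0.992 and 0.996, so this value does not set SKOV-3 apart. Their medians over all probe sets were 6.24 in treated and 6.23 in untreated cells, within the 6.19 to 6.30 of all 8 arrays. The median difference was 0.01 and the SD over probe sets 0.18, against SDs of 0.16 in DOV-13, 0.28 in CAOV-3 and 0.19 in OVCAR-3. The central 95% of SKOV-3 differences ran between -0.40 and 0.35. The spread depended on level, with the probe sets cut by it into 3 equal parts. The SD was 0.18 in the dim, 0.22 in the middle and 0.14 in the bright part. The median difference also went with level, at 0.05, 0.02 and -0.02 in these parts. Dim probe sets as a whole thus lay slightly above 0.

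A probe set was counted when it differed by at least 1 and met the level rule, which asks that its higher value reach the level of the pair's median probe set (6.35). In SKOV-3, 1 probe set (0.00525% of those tested) was counted as higher and 3 (0.0157%) were lower. DOV-13 had 3 higher (0.0157%) and 2 lower (0.0105%), CAOV-3 146 higher (0.766%) and 29 lower (0.152%), and OVCAR-3 29 higher (0.152%) and 2 lower (0.0105%). At a difference of 0.5, 21 SKOV-3 probe sets (0.11%) were higher and 114 (0.598%) were lower. The other lines had the opposite balance, with 60 higher (0.315%) and 34 lower (0.178%) in DOV-13, 432 (2.27%) and 302 (1.58%) in CAOV-3, and 88 (0.462%) and 42 (0.22%) in OVCAR-3. The 1 probe set above 2-fold belonged to IFI44, an interferon-stimulated gene, and the 3 below belonged to DHX9, LINC00472 and FCF1.

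**Figure D1:**
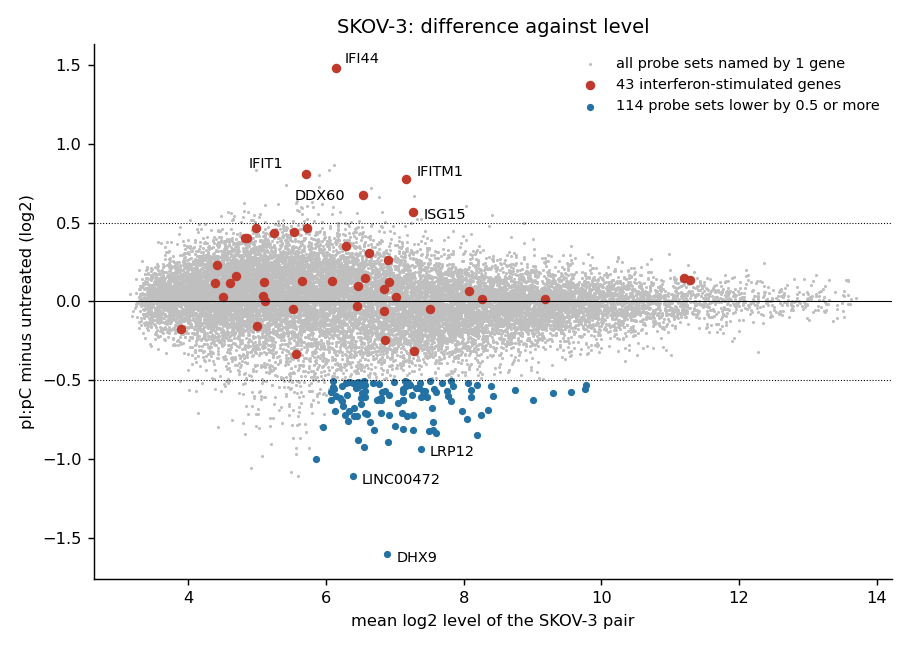
Each point is a probe set, with the mean log2 level of the SKOV-3 pair on the x axis and the difference of pI:pC minus untreated on the y axis. Interferon-stimulated genes are in red and the 114 probe sets lower by 0.5 or more in blue. IFI44 stands alone at the top at 1.48, and DHX9 lies lowest at -1.61.

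Interferon-stimulated genes were higher in treated SKOV-3 in part and by little. Of the 43 measured, 34 had a difference above 0 and 5 a difference of 0.5 or more, and none was lower by 0.5. Over all 11963 genes, 55.9% lay above 0, 44 (0.368%) were higher by 0.5 and 92 (0.769%) were lower by 0.5. The list is dimmer than all genes, with a median level of 6.43 against 6.72 in treated SKOV-3. The list median was 0.12 in SKOV-3, against 0.02 over all genes. In the other lines it was 0.04 in DOV-13, 1.66 in CAOV-3 and 1.29 in OVCAR-3, with 3, 38 and 31 members higher by 0.5. Over all genes the shares higher by 0.5 were 0.51%, 2.87% and 0.828% in these lines. Genes in the lists are each read by their brightest probe set (by its mean over 8 arrays), with no level rule, and the lists were chosen with results of these arrays known.

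The 5 members that were higher by 0.5 were IFI44, IFIT1, IFITM1, DDX60 and ISG15. Their promoters are shown because the element through which interferon acts can be looked for in them, together with that of IFI44L, which was not higher in SKOV-3. The sequences are 300 bases, 250 before and 50 after the annotated start, 5′ to 3′ on the gene's strand, from RefSeq on GRCh38.p14. Capitals mark each match to the motif GAAA, any 2 bases and GAAA again, a core form of the interferon-stimulated response element, on either strand, with overlapping matches merged. The windows lie at chr1:78649539-78649838 (plus strand, 1 of 2 windows of IFI44), chr10:89392373-89392672 (plus, IFIT1), chr11:313790-314089 (plus, IFITM1), chr4:168318703-168319002 (minus, DDX60), chr1:1013247-1013546 (plus, ISG15) and chr1:78620198-78620497 (plus, IFI44L).
IFI44: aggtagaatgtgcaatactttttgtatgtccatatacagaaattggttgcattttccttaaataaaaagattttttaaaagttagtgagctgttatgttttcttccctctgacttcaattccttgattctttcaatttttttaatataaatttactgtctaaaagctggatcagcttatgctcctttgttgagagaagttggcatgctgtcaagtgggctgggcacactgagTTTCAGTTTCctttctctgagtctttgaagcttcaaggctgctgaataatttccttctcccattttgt
IFIT1: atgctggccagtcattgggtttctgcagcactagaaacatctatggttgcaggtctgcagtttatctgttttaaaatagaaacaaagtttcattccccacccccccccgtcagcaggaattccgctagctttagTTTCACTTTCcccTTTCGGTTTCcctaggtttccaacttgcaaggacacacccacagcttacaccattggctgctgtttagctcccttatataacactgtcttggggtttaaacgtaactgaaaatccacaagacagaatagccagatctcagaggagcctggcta
IFITM1: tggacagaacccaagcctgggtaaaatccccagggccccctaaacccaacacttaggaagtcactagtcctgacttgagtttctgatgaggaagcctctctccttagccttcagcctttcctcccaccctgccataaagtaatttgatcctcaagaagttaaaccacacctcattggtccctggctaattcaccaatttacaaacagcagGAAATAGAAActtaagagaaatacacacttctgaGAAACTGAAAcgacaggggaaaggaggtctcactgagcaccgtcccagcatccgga
DDX60: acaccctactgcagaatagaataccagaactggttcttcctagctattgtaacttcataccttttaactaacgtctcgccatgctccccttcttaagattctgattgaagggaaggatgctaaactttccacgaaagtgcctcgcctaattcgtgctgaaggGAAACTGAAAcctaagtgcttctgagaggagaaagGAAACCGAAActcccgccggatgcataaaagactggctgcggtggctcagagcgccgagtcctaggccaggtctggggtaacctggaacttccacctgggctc
ISG15: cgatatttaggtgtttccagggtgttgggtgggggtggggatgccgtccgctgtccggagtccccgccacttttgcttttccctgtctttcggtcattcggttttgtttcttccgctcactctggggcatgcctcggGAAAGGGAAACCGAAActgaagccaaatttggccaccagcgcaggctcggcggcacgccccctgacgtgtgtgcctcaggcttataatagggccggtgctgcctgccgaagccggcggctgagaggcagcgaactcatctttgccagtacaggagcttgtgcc
IFI44L: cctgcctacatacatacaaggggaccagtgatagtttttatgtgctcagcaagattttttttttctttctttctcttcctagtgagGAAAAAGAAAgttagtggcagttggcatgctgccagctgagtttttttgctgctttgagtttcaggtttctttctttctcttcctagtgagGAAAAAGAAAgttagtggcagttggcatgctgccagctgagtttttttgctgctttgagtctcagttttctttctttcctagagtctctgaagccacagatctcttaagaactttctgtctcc

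The motif was in a window of all 5 of these higher genes. It was also in 19 of the other 28 interferon-stimulated genes with a window (67.9%). Over all 35116 promoter windows it occurred in 3.57%, and among 9563 measured genes in 395 (4.13%). Of 12 other genes with a higher probe set it was found in 1 (8.33%), and of 87 genes with a lower probe set in 4 (4.60%). A match describes these letters only and is no measured binding site.

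IFI44, an antiviral protein induced by interferon, had 6.88 in treated and 5.40 in untreated SKOV-3, a 2.79-fold difference (1.48 on the log2 scale). Its other probe set had 4.68 in treated and 4.45 in untreated cells, a difference of 0.23. The treated array was the higher one for both probe sets of IFI44, by unequal amounts. IFIT1, which binds viral RNA that lacks the host cap, had 6.12 in treated and 5.31 in untreated cells (difference 0.81), both below the level rule. IFITM1, a membrane protein that restricts virus entry, had 7.54 and 6.77 in treated and untreated cells (0.78). Its relatives differed less, IFITM2 with 11.36 treated and 11.23 untreated and IFITM3 with 11.27 and 11.12. DDX60, a helicase that aids RIG-I-like receptors, had 6.88 in treated and 6.20 in untreated cells (0.68). ISG15, a ubiquitin-like modifier, had 7.54 in treated and 6.98 in untreated cells (0.57). These 4 genes other than IFI44 each have 1 probe set that the annotation names by that gene alone. Probe sets named by several genes were not used, so no second measurement is given for them.

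Behind these came genes with differences just under 0.5. IFI27 and ISG20, a nuclease, each differed by 0.47. OASL differed by 0.44, MX2 by 0.43, TRIM22 by 0.41 and OAS1, a synthetase of the RNase L activator, by 0.40. A second probe set of OAS1 was level (4.04 treated, 4.05 untreated). All 6 had both values below the level of the median probe set. The next range held IFI35 (0.35), UBE2L6, the conjugating enzyme of ISG15 (0.30), and HERC6 (0.26). The remaining members ranged down to -0.33.

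Several members that are classical reporters of interferon were level or lower. MX1, a GTPase that blocks viral replication, had 5.11 in treated and 5.10 in untreated SKOV-3, against differences of 0.44 in DOV-13, 1.99 in CAOV-3 and 3.92 in OVCAR-3. IFI44L, which had the largest OVCAR-3 difference of all 19064 probe sets (5.52), had 3.81 in treated and 3.99 in untreated SKOV-3. BST2, which tethers virus particles to the cell, differed by 0.03, and IFI6 had 5.49 in treated and 5.54 in untreated cells. The 3 lowest differences belonged to IFI16, a DNA sensor, at -0.33 (5.40 treated, 5.73 untreated), IFIT5 at -0.32 (7.12 and 7.43) and SP110 at -0.24 (6.74 and 6.98). IRF7, the regulatory factor that amplifies interferon production, had 6.98 in treated and 6.85 in untreated cells, against differences of 1.16 in CAOV-3 and 1.29 in OVCAR-3.

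**Figure D2:**
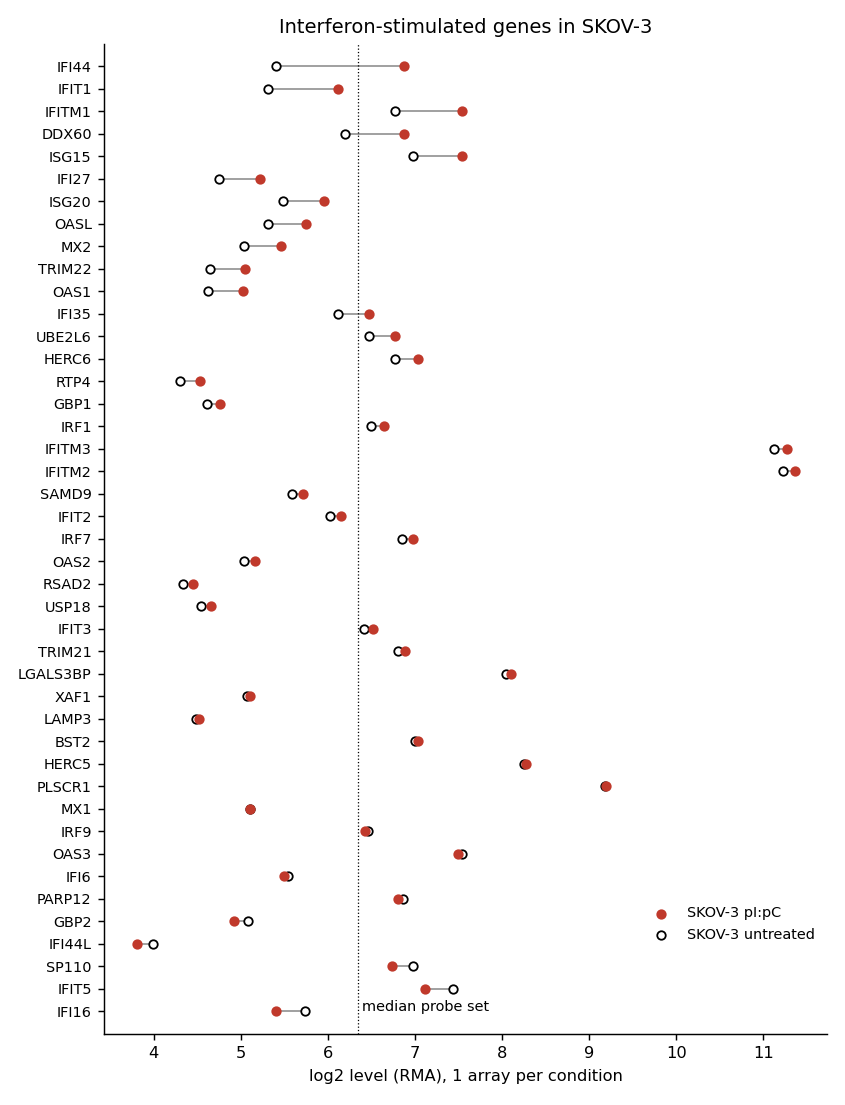
Log2 level of each of the 43 interferon-stimulated genes in treated (red) and untreated (open) SKOV-3, 1 array each, ordered by difference. The dotted line is the level of the median probe set (6.35), and the 5 genes at the top are those with a difference of 0.5 or more.

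Sensors of double-stranded RNA and their adaptors hardly differed. None of 17 measured members differed by 0.5 in either direction, and the list median was 0.03. Over all genes 0.368% were higher and 0.769% lower by 0.5. A count of none in so short a list is near these shares. The same holds for the other lists here with no member past 0.5. TLR3, the endosomal receptor, had 3.92 in treated and 3.84 in untreated SKOV-3, both below the level rule. IFIH1, which encodes MDA5, had 3.75 and 3.37 (difference 0.38), and its second probe set differed by 0.19. RIGI was lower, at 4.45 in treated and 4.75 in untreated cells (-0.30), although it was higher in all 3 other lines (0.38 in DOV-13, 1.70 in CAOV-3, 0.91 in OVCAR-3). The untreated levels of RIGI and IFIH1 were lower in SKOV-3 than in each other untreated line, where RIGI stood at 5.57 to 6.83 and IFIH1 at 4.35 to 6.69.

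The adaptors MAVS and TRAF6 had differences of -0.28 and -0.29. EIF2AK2, the kinase PKR that halts translation on binding double-stranded RNA, had 8.79 in treated and 8.82 in untreated SKOV-3, and its second probe set had 8.20 and 8.33. The same gene differed by 0.53 in CAOV-3 and 1.13 in OVCAR-3. DHX58, a regulator of the cytosolic sensors, differed by 0.27 and TRIM25, which activates RIG-I, by 0.24.

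Interferon genes themselves were dim. IFNB1, the first type I interferon made by most cells that sense viral RNA, had 4.62 in treated and 4.55 in untreated SKOV-3. Of 14 interferon genes 1 met the level rule, IFNA17 at 6.39 in treated and 6.13 in untreated cells, and none differed by 0.5. The list's median was 0.07, against 0.05 over the dim part of all probe sets. In DOV-13, CAOV-3 and OVCAR-3 the list's median was 0.07, -0.01 and 0.00. In the receptor and JAK-STAT list none of 12 members differed by 0.5 and the median was -0.09. IFNAR2, a chain of the type I interferon receptor, had 7.31 in treated and 7.58 in untreated cells (-0.26), and IFNAR1 differed by -0.09.

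Cytokines and chemokines showed no member with a difference of 0.5 among the 31 measured, and their median was 0.08. That count is near the shares over all genes in SKOV-3 (0.368% higher, 0.769% lower). In DOV-13, CAOV-3 and OVCAR-3, 5, 12 and 7 members were higher by 0.5, against 0.51%, 2.87% and 0.828% over all genes. CXCL8, the neutrophil chemoattractant interleukin 8, had 5.38 in treated and 5.40 in untreated SKOV-3, whereas it differed by 1.13 in DOV-13, 3.45 in CAOV-3 and 1.28 in OVCAR-3. CXCL10, which attracts T cells, had 5.32 and 5.13 in treated and untreated SKOV-3, and CXCL11 had 3.81 and 3.65. IL6 differed by -0.01, and CCL5 had 4.80 on both arrays. The member with the largest difference was IL1B, a pro-inflammatory cytokine, at 6.38 in treated and 5.95 in untreated cells (0.43), with 0.26 on its second probe set.

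Of 19 targets and feedback inhibitors of NF-kB, 14 were above 0 (55.9% over all genes) and 1 was higher by 0.5 (0.368%). Their median was 0.12. The member higher by 0.5 was RELB, a subunit of NF-kB, with 5.90 in treated and 5.26 in untreated SKOV-3 (0.64). Both values were below the level rule. The gene was also higher in DOV-13 (0.35) and CAOV-3 (0.97) and lower in OVCAR-3 (-0.74). TRAF1 differed by 0.43. ICAM1, an adhesion molecule, differed by 0.41 on its brightest probe set and by 0.14 and -0.50 on the others. The feedback inhibitors TNFAIP3 and NFKBIA, which end NF-kB signalling, differed by -0.02 and 0.12, against 1.69 and 1.09 in CAOV-3.

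MHC class I genes, which present peptides to T cells, had a median of 0.12. Of 16 measured members, 10 were above 0 (55.9% over all genes) and 1 was higher by 0.5 (0.368%). PSMB9, a catalytic subunit of the immunoproteasome, had 6.12 in treated and 5.48 in untreated SKOV-3 (0.63), both below the level rule. It was higher in the other lines as well, by 0.22 in DOV-13, 1.21 in CAOV-3 and 0.61 in OVCAR-3. HLA-C differed by 0.30 and HLA-B by 0.28 on its brightest probe set, while the other HLA-B probe sets differed by 0.01 and -0.05. Probes of the HLA genes can share transcripts, so their members are not separate measurements. TAP1, the peptide transporter, had 7.50 in treated and 7.52 in untreated cells, against a difference of 1.63 in CAOV-3. ERAP1, which trims peptides, was lowest at 5.74 and 6.16 (-0.41).

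Death receptors and caspases (17 measured) and BCL2 family and IAP genes (19 measured) had no member past 0.5 in either direction on its brightest probe set. Dimmer probe sets of CFLAR and MCL1, both inhibitors of apoptosis, were lower by 0.5 under the level rule, with 6.24 in treated and 6.82 in untreated cells (-0.58) and 5.78 and 6.36 (-0.58). CASP8, the initiator caspase of death receptors, had 7.54 in treated and 7.60 in untreated cells. TNFRSF10B, a receptor of TRAIL, had 8.63 and 8.60, and BIK, a pro-apoptotic BH3-only gene, 6.87 and 6.76. BCL2L1, an apoptosis inhibitor, was level on its brightest probe set (8.58 and 8.57) and lower on the others (-0.78 and -0.60). Neither G2/M and mitosis genes (30 measured, median 0.01) nor S phase genes (26 measured, 8 above 0, median -0.04) had a member past 0.5. Over all genes 55.9% were above 0. The S phase list is brighter than all genes (median level 9.42 against 6.72 in treated SKOV-3), and bright probe sets had a median of -0.02.

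Cholesterol synthesis genes had the lowest list median (-0.11), with 1 of 11 lower by 0.5 (0.769% over all genes). That was DHCR7, the last enzyme of the pathway, at 6.90 in treated and 7.44 in untreated cells (-0.54) and -0.19 on its second probe set. The list median was lower in CAOV-3 (-0.56). Hypoxia and glycolysis genes had 4 of 19 members above 0, against 55.9% over all genes, and none past 0.5, with PDK1 at -0.46 and HK2, the first enzyme of glycolysis, at -0.40. That list is brighter than all genes (median level 8.54 against 6.72 in treated SKOV-3). The bright part of all probe sets had a median of -0.02, so the 2 shares are not matched for level. Of immediate early genes 1 of 26 was lower by 0.5, DUSP6, a phosphatase that ends ERK signalling, at 4.03 in treated and 4.82 in untreated cells. Its other probe sets differed by between -0.46 and 0.22. The epithelial list (18 measured) had 1 member lower by 0.5, the folate receptor gene FOLR1 at 7.82 in treated and 8.38 in untreated cells (-0.56), whose brighter SKOV-3 probe set differed by 0.21. The histone list (8 measured) also had 1, H4C8 at -0.56 with both values below the level rule. Ribosomal protein genes lay between -0.08 and 0.11, and reference genes between -0.09 and 0.10.

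**Figure D3:**
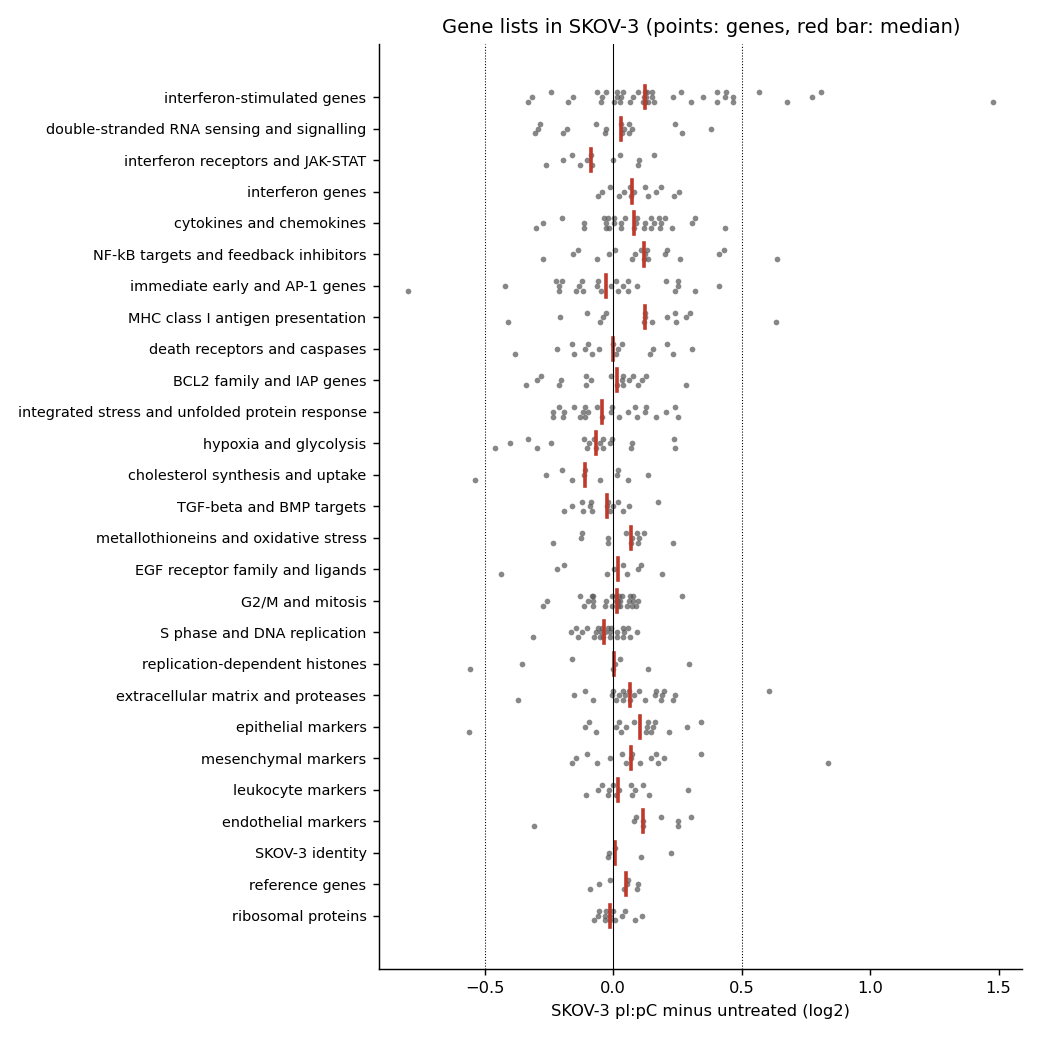
Difference of pI:pC minus untreated in SKOV-3 for each measured member of the gene lists drawn (points), with the list median (red bar) and dotted lines at 0.5 in size. The interferon-stimulated list reaches furthest to the right, and the list medians lie between -0.11 and 0.12.

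Of the 21 probe sets higher by 0.5 under the level rule, 4 belonged to interferon-stimulated genes (IFI44, IFITM1, DDX60 and ISG15). The other 17 belonged to genes of varied known roles, and several go against the other lines. The interferon-stimulated list holds 43 of the 11963 measured genes. Of the 114 lower probe sets 0 belonged to it, a count near that share. GATA2, a zinc finger transcription factor, had 6.55 in treated and 5.69 in untreated SKOV-3 (0.86), and its other probe sets differed by 0.06 and 0.29. It differed by 0.05 in DOV-13, -0.64 in CAOV-3 and -0.27 in OVCAR-3. ACTA2, the smooth muscle actin of contractile cells, had 6.47 and 5.63 (0.83), with -0.03 on a second, dimmer probe set. CPE, a carboxypeptidase that trims peptide hormones, had 7.01 in treated and 6.29 in untreated cells (0.72), while its second probe set differed by -0.19.

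Both chains of type I collagen, the main fibrous protein of connective tissue, were among them. COL1A2 had 8.34 in treated and 7.74 in untreated SKOV-3 (0.61), and its second probe set differed by 0.31. COL1A1 had 7.64 and 7.12 on the probe set that met the rule (0.53), and its 3 other probe sets differed by 0.51, 0.23 and 0.01. The brightest of its probe sets was the level one. In the other lines the first COL1A1 probe set was lower after treatment, by -0.71 in DOV-13, -0.45 in CAOV-3 and -0.29 in OVCAR-3. COL1A2 differed by -0.05, -0.09 and -0.32 in the same lines. The wider list of matrix genes and proteases had 18 of 24 members above 0 and COL1A2 as its 1 member higher by 0.5. The mesenchymal markers, of which 11 of 16 were above 0, had ACTA2 as theirs. Over all genes 55.9% were above 0 and 0.368% were higher by 0.5.

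PLAAT4, a tumour suppressor known to be induced by retinoids and interferon, had 7.10 in treated and 6.43 in untreated SKOV-3 (0.66). It was not in the interferon-stimulated list, and it differed by -0.31 in DOV-13, 0.67 in CAOV-3 and -0.08 in OVCAR-3. CDK12, a kinase of transcription elongation, had 7.61 and 6.94 (0.67) and differed by 0.03 on its second probe set. PPL, a protein of desmosomes, had 6.41 and 5.81 (0.60). MT1E, a metal-binding metallothionein, had 8.69 and 8.14 on the probe set that met the rule (0.55) and 10.44 and 10.57 on a brighter one (-0.13). KDM6B, a histone demethylase, had 7.59 and 7.06 (0.52). TTC9, BRD1, SCLY, ENO2, CTSZ and PKD1 lay between 0.51 and 0.57, and 1 further gene at 0.50. A second probe set of TTC9 differed by -0.47, that of BRD1 by -0.20 and that of CTSZ by 0.27. Further probe sets of PKD1 differed by -0.12 and 0.18, and those of SCLY by -0.02 and 0.07. Among the 15 higher genes with more than 1 probe set, the 23 other probe sets had a median of 0.12. Of these, 16 were above 0 and 1 was higher by 0.5. Over all genes, by their brightest probe set, these shares were 55.9% and 0.368%. The 23 leave out, by construction, every probe set already counted, so they do not measure agreement within a gene.

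Past 0.5 under the level rule, downward differences were more numerous than upward ones in SKOV-3, and the largest in size was among them. DHX9, an RNA helicase that binds double-stranded RNA, had 6.08 in treated and 7.69 in untreated SKOV-3, which is 0.329 of the untreated level (-1.61). Its other probe sets had 8.70 and 9.32 (-0.63), and 9.17 and 9.28 (-0.11). All 3 probe sets of DHX9 were lower in treated cells, by very unequal amounts. LINC00472, a long noncoding RNA, had 5.84 in treated and 6.95 in untreated cells (-1.11). FCF1, a factor of ribosomal RNA processing, had 5.35 and 6.35 (0.499 of the untreated level), with -0.72 on its second probe set.

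Other lower genes had a further probe set that was lower too. LRP12, a membrane receptor of the LDL receptor family, differed by -0.94, -0.73 and -0.36 on its 3 probe sets. SMAD5, which carries BMP signals to the nucleus, had 6.09 in treated and 7.02 in untreated cells (-0.92), with -0.41 on the other probe set. TMPO, a protein of the nuclear lamina, differed by -0.81, -0.72 and -0.08. PAX8, a transcription factor that marks ovarian carcinoma, had 7.18 in treated and 7.94 in untreated cells on the probe set furthest down (-0.77). Its 7 other probe sets differed by between -0.57 and 0.37, and the brightest of them had 10.16 in treated and 10.01 in untreated cells. CLIC4, a chloride channel protein, was the fifth gene with 2 probe sets lower by 0.5 under the level rule, beside DHX9, LRP12, PAX8 and TMPO.

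In other genes the probe sets differed among themselves. GART, an enzyme of purine synthesis, had 7.09 in treated and 7.91 in untreated cells (-0.82) on the probe set that met the rule, and -0.17 to 0.08 on its 4 others. PICALM, a clathrin adaptor, differed by -0.83 there and by -0.27 to 0.08 on 4 others. PSPH, the last enzyme of serine synthesis, differed by -0.88 and by -0.01 on its other probe set, and CEP152, a centrosome protein, by -0.82 and 0.00. EIF5A, a translation factor, differed by -0.74, and by -0.09 and 0.00 on the others. ERBB2 showed the same split, with 0.11 on its brightest probe set and -0.77 on a dim one (4.41 treated, 5.18 untreated).

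The 114 lower probe sets belonged to 109 genes, and 79 of these genes have further probe sets. Of those 180 further probe sets, 121 were lower in treated cells. Over all genes, by their brightest probe set, 55.9% were above 0. The further probe sets leave out, by construction, every probe set already counted. Neither this count nor their sizes measure agreement within a gene. Probe sets of the class that can match more than 1 transcript (suffix _s_at) made up 63.2% of the lower ones, against 43.0% of all that met the level rule and 42.9% of the 21 higher ones. The lower genes spanned a median of 49.9 kb of genome, against 31.3 kb over all genes at that level and 20.6 kb for the higher ones. The corresponding median for lower genes was 30.6 kb in DOV-13, 39.2 kb in CAOV-3 and 47.9 kb in OVCAR-3.

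**Figure D4:**
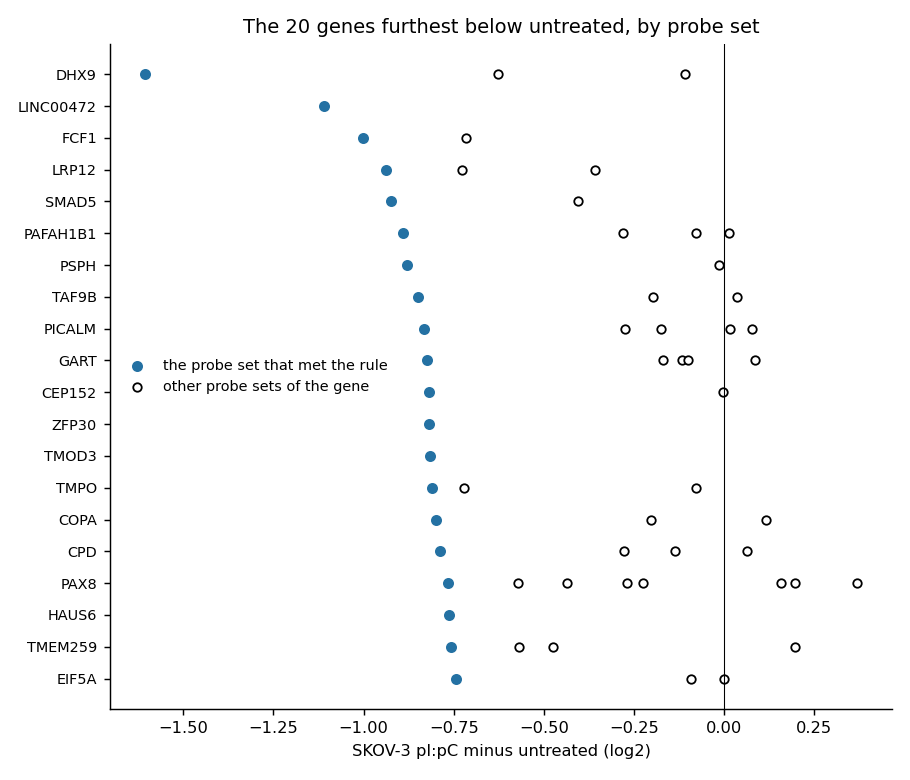
Difference of pI:pC minus untreated in SKOV-3 for each probe set of the 20 genes with the largest downward differences. Blue points are the probe sets that met the level rule with the largest downward difference, from DHX9 at -1.61 to EIF5A at -0.74, and open points are the genes' other probe sets, which lie nearer 0 by the choice of the blue ones.

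Control RNAs also differed between the treated and the untreated SKOV-3 array. Poly-A spike-ins are bacterial RNAs that are usually added to total RNA before labelling, and the array reads each near its 5′ end, in its middle and near its 3′ end. In SKOV-3 the 8 probe sets at the 5′ end were all lower on the treated array, by -0.75 to -0.45 with a median of -0.64. These 8 are pairs of probe sets for the dap, lys, phe and thr RNAs, and so not 8 separate controls. The median was -0.36 in the middle and -0.11 at the 3′ end. In DOV-13, CAOV-3 and OVCAR-3 the 5′ medians were 0.11, -0.03 and 0.18. The excess of the 3′ over the 5′ level had a median of 2.48 on the treated and 1.99 on the untreated SKOV-3 array, against 1.74 to 2.19 on the other 6 arrays. Hybridisation controls, which are added after labelling, had a 5′ median of -0.17 in SKOV-3, and the 5′ probe sets of GAPDH and ACTB differed by -0.14 and -0.07. The part of the 5′ difference in the lower probe sets was not tested.

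**Figure D5:**
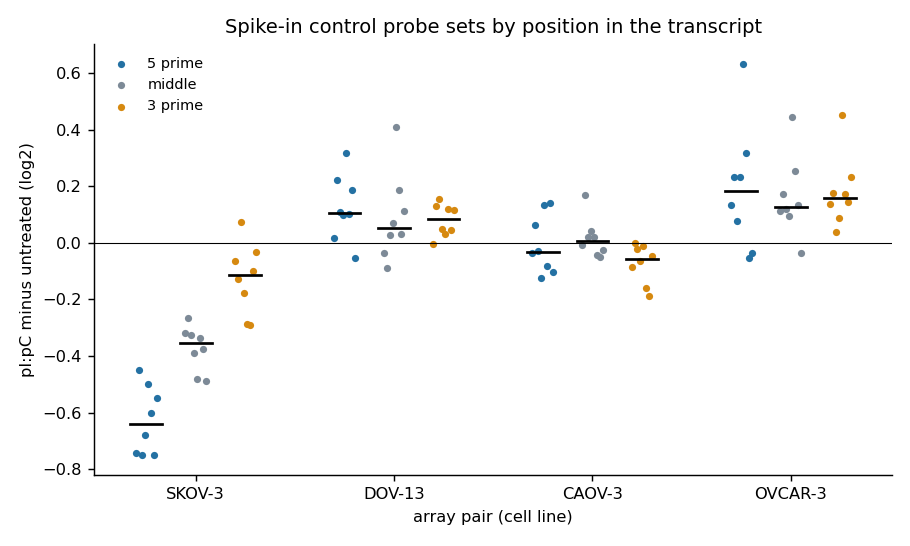
Difference of pI:pC minus untreated for the poly-A spike-in probe sets of each cell line's array pair, 8 each at the 5′ end, the middle and the 3′ end (bars: medians). The SKOV-3 pair steps from -0.64 at the 5′ end to -0.11 at the 3′ end, and the other pairs show medians of -0.06 to 0.18.

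The SKOV-3 probe sets past 0.5 were set beside those of the other lines. Of the 21 higher ones, none was also higher in DOV-13, 6 were in CAOV-3 (28.6% of the SKOV-3 and 1.39% of the CAOV-3 probe sets) and 4 in OVCAR-3 (19.0% and 4.55%). Over all probe sets, 0.315% were higher in DOV-13, 2.27% in CAOV-3 and 0.462% in OVCAR-3. Of the 114 lower ones, 5 were also lower in CAOV-3 (4.39% and 1.66%) and none in DOV-13 or OVCAR-3. Over all probe sets, 1.58% were lower in CAOV-3, 0.178% in DOV-13 and 0.22% in OVCAR-3. TAF9B, a subunit of the general transcription factor TFIID, was 1 of these 5, with 7.77 in treated and 8.62 in untreated SKOV-3 (-0.85) and -0.90 in CAOV-3. Across all named probe sets the SKOV-3 differences correlated at -0.15 with those of DOV-13, -0.08 with CAOV-3 and -0.04 with OVCAR-3, a description over probe sets that share arrays and are not independent.

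Whether SKOV-3 differed from the other lines in its response was tested across all 19064 probe sets with limma, which takes the spread from the other 3 lines. No probe set passed after Benjamini-Hochberg adjustment (0%), with 0.577 as the smallest adjusted p. With no adjustment, at a limma p under 0.05 there were 1505 probe sets (7.89%), of which 654 were higher in SKOV-3 relative to the others and 851 lower. The smallest p belonged to DHX9, whose difference in SKOV-3 was lower than the other lines' mean difference by -1.65 ± 0.17 (SE; limma, adjusted p = 0.577). The next were LRP12 (-1.10 ± 0.14), ZNF257 (-1.04 ± 0.13) and CEP152 (-1.16 ± 0.15), each with an adjusted limma p of 0.577. Upward, CPE had 0.90 ± 0.14 and the COL1A1 probe set 1.01 ± 0.19, with the same adjusted p.

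Interferon-stimulated genes did not pass this test in either direction, and the other 3 lines ranged widely among themselves. IFI44L had an adjusted p of 0.715, and MX1 lay below the other lines' mean by -2.12 ± 1.15 (limma, adjusted p = 0.698) and ISG15 by -1.34 ± 1.02 (limma, adjusted p = 0.76). IFI44 lay at -0.35 ± 0.98 (limma, adjusted p = 0.945). CXCL2, a neutrophil chemokine that was higher by 0.91 to 1.23 in each other line, had 5.56 in treated and 5.37 in untreated SKOV-3, and lay at -0.93 ± 0.18 (limma, adjusted p = 0.577). CXCL8 lay at -1.98 ± 0.86 (limma, adjusted p = 0.649) and RIGI at -1.30 ± 0.46 (limma, adjusted p = 0.615). A test with 2 residual degrees of freedom that misses its threshold does not show that the lines responded alike.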

How the data were processed

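Per the labels' protocols, Trizol-extracted total RNA gave biotinylated cRNA for Affymetrix arrays. The deposited values are log2 expression levels, and the submitters' processing notes name RMA. RMA corrects background, brings arrays to 1 distribution, summarises probe sets and compresses differences of dim ones. The sources used here give no RMA version and no batch, and do not tell if the arrays were processed together. The number of arrays limits the precision, and the signal over background is not given.

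Of 22277 probe sets, the platform annotation supplied with the data names 19064 by 1 gene and 1043 by several, and 2108 besides 62 controls are unnamed here. Differences are treated minus untreated within a line. No replicates exist within SKOV-3. limma 3.58.1 under R 4.3.3 made the only test, two-sided, on all 8 arrays with line blocks, treatment and a further treatment term for SKOV-3 (2 residual and 4.21 prior degrees of freedom), with Benjamini-Hochberg adjustment at 0.05. The line blocks pair each treated with its untreated array. The limma fit was also run on simulated data, with shifts larger than any SKOV-3 difference and no spread in response among the other lines. That run does not measure its power on these arrays. Promoter windows are RefSeq's. The 28 lists hold 553 genes, of which 484 were measured.

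The members and lists were chosen with earlier results of these data known. Named by rule were the 20 largest differences each way under the level rule, list members past 0.5 or else the 3 largest of a list, the 10 smallest limma p and a fixed set of sensor, cytokine and apoptosis genes. Other genes were chosen after their values were seen. Alternatives covered the level filter, threshold, centring, quantile normalization, the choice of probe set, the block, eBayes settings and leaving out a line.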

Additional observations from a re-analysis of the deposited data

How the results depend on the processing

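With 1 array per condition, no value inside SKOV-3 has an error. The 4 probe sets past 2-fold became 7 with no level filter, 135 at a difference of 0.5 and 2 with 1 probe set a gene, and stayed at 4 under centring, quantile normalization again and all probe sets of the table. The limma comparison of SKOV-3 with the other lines called 0 probe sets under every alternative run. Its smallest adjusted p was 1.0 with no replicate block (45 probe sets at an unadjusted p under 0.05), 0.567 above the median level (685), 0.192 with trend and robust (1443), 0.581 after quantile normalization (1412) and 0.652 with 1 probe set a gene (904). Leaving out a line gave 0 calls each time, with 1187 to 1623 probe sets at an unadjusted p under 0.05 and a smallest adjusted p of 0.262 to 0.631.

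Of 137 named probe sets, all 137 moved by less than the SD over probe sets (0.18) under centring and quantile normalization. With the mean of a gene's probe sets 42 moved, and with the most variable probe set 18 moved and 3 reversed: CPE became -0.19, FOLR1 0.21 and TTC9 -0.47. List medians near 0 turned sign in 2 to 4 lists per alternative, which include double-stranded RNA sensing, ribosomal proteins and replication-dependent histones but not the interferon-stimulated genes. Requiring at least 2 probe sets of a gene past 0.5 in the same direction, each meeting the level rule, an alternative chosen after seeing the data, left 0 of 15 higher and 5 of 79 lower genes with several probe sets. The cause was not tested.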
